A study of Homo sapiens with 4 samples.

Results

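The mRNAs described here are those of the ZNF genes, the numbered series of human zinc finger genes, in RNA recovered from HEK293T cells with an antibody against PHGDH or with a control IgG antibody. A gene was included where its symbol was ZNF followed by a number and an optional letter, with antisense transcripts and pseudogenes (suffix P) left out, and where it reached at least 20 CPM (read counts scaled to a common library total) in at least 2 of the 4 libraries. Of 44715 gene symbols in the tables, 511 met the name rule and 53 of these met the CPM rule. The same CPM rule was met by 5219 other genes, which are the comparison throughout. Members were thus chosen by their CPM in the 4 libraries, so a level above the threshold is no result, and the lists below are described without a test of the list. HEK293T is a widely used human cell line derived from embryonic kidney, with the SV40 large T antigen added. Values of a pair of libraries are given with replicate 1 first. The 2 anti-PHGDH and the 2 IgG libraries were made from lysates of untreated cells of the same line by native RNA immunoprecipitation and sequencing (RIP-seq), and the series text calls the replicates biological. PHGDH is the enzyme of the first step of serine synthesis, and the study asked which RNAs associate with it.

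Most ZNF genes encode proteins with tandem C2H2 zinc fingers, in which a pair of cysteines and a pair of histidines hold a zinc ion and each finger contacts a short stretch of DNA. The largest branch carries a KRAB domain that recruits the co-repressor TRIM28 and, through it, the histone methyltransferase SETDB1 and the HP1 proteins (CBX1, CBX3 and CBX5), which silence transposable elements and other targets. Many of these genes lie in clusters on chromosome 19 and are transcribed at low levels. The symbol does not guarantee a transcription factor. ZNF598 is a ubiquitin ligase that recognises collided ribosomes, ZNF622 and ZNF593 are factors of large ribosomal subunit maturation, ZNF346 binds double-stranded RNA, and ZNF207 is a spindle assembly factor that binds BUB3.

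As recovered from the steps of the CPM values, the smallest library, anti-PHGDH replicate 2, had 1216477 reads in genes and the largest, IgG replicate 1, had 3875746. IgG replicate 1 stood apart. It was the deepest library and listed 4148 genes above 0, where the other 3 listed between 14518 and 16767. Results that rest on it are given with and without it. The mRNA of the precipitated protein, PHGDH, was at 6550.2 and 1531 CPM in the anti-PHGDH pair, against 0 and 461 CPM in the IgG pair (limma adjusted p = 0.0062). Of the 7 marker genes listed for HEK293T cells, NEFM, NEFL, VIM and KRT18 were above 0 in all 4 libraries, KRT8 and CDH2 in all but IgG replicate 1, and PAX2 did not exceed 1.90 CPM. PTPRC and HBB, markers of blood cells, were at 0 in all 4, while COL1A1, a fibroblast collagen gene, lay between 7.60 and 12.3 CPM in all but IgG replicate 1, where it was at 0. Fewer cells, less RNA per cell and less RNA carried over in the precipitation cannot be told apart in such libraries.

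The ZNF family as a whole was widely detected at low levels, except in IgG replicate 1. Of the 511 ZNF symbols, 395 (77.3%) were above 0 in anti-PHGDH replicate 1, 355 (69.5%) in anti-PHGDH replicate 2 and 369 (72.2%) in IgG replicate 2. In IgG replicate 1 the number was 52 (10.2%; 95% Wilson interval 7.84 to 13.1%), although that library had the most reads. Of the ZNF symbols, 274 were above 0 in the other 3 libraries and at 0 in IgG replicate 1, and 99 were at 0 in all 4. None of the 511 was above 0 in IgG replicate 1 alone. Over all 44715 symbols, 9.28% were above 0 in IgG replicate 1 and 33.1% in IgG replicate 2. Such intervals treat the genes of a library as independent draws, and they do not cover the spread between libraries. Reads were counted without molecular identifiers.

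All 53 members were above 0 in both anti-PHGDH libraries and in IgG replicate 2, as were all 5219 other genes that met the CPM rule. In IgG replicate 1, 21 of the 53 members (39.6%; 95% Wilson interval 27.6 to 53.1%) were above 0, against 2794 of the 5219 other genes (53.5%; 52.2 to 54.9%). The shares are also given by the mean CPM of the 3 other libraries. Under 20 CPM, 2 of 3 members (66.7%) and 129 of 197 other genes (65.5%) were above 0. These 2 members, ZNF641 and ZNF518A, needed IgG replicate 1 to meet the CPM rule, so their detection there was fixed by it. The same holds for any other gene that met the rule in this way, so the shares in this stratum are no result. Between 20 and 50 CPM, where 35 members lay, 14 members (40.0%) and 980 of 2453 other genes (40.0%) were above 0. Between 50 and 100 CPM it was 5 of 13 members (38.5%; 17.7 to 64.5%) and 673 of 1239 other genes (54.3%), and at 100 CPM or more it was 0 of 2 members and 1012 of 1330 other genes (76.1%). In the stratum that holds most members the shares were equal to 3 digits. Between 50 and 100 CPM the share of the other genes lay inside the interval of the members. At 100 CPM or more it lay above the interval of the 2 members (0 to 65.8%). Over all strata together, the share of the other genes also lay above the interval of the members. The CPM rule itself used IgG replicate 1. When it was applied to the 3 other libraries only, 51 members remained, of which 37.3% were above 0 in IgG replicate 1, against 52.3% of the other genes.

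**Figure D1:**
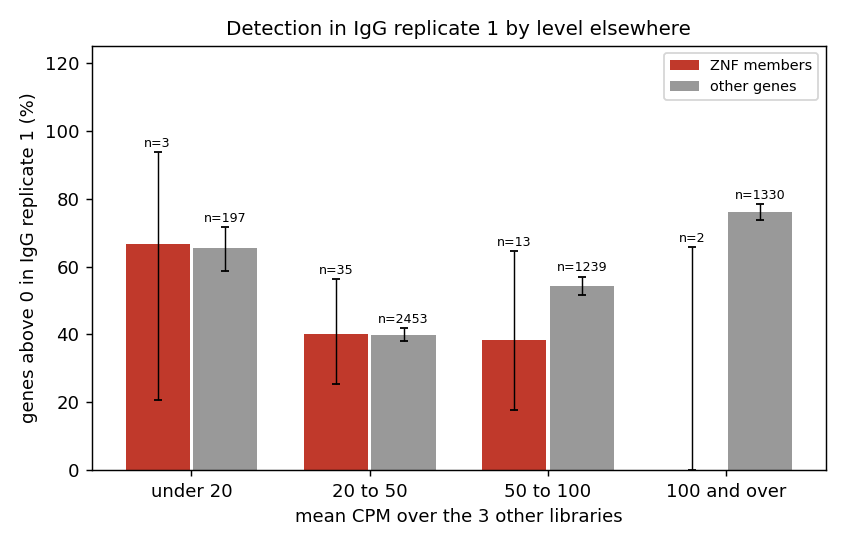
Share of genes above 0 in IgG replicate 1 (y axis, %) by the mean CPM of the 3 other libraries (x axis), for the 53 ZNF members (red) and the 5219 other genes (grey). Bars start at 0, error bars are 95% Wilson intervals and n is the number of genes. Between 20 and 50 CPM both shares were 40.0%, and of the 2 members at 100 CPM or more neither was detected.

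Where members were detected in IgG replicate 1, they lay in separate ranges with no member between. Of the 21 members above 0 there, 15 were at 52.4 to 820.5 CPM and 6 were at 0.258 to 3.10 CPM, which is between 1 and 12 reads. No member lay between 5 and 50 CPM, a range that held 617 of the 2794 other genes detected there (22.1%). The 15 high members had a median of 288 CPM in IgG replicate 1 and of 35.5 CPM in IgG replicate 2, 29.4 CPM in anti-PHGDH replicate 1 and 36.2 CPM in anti-PHGDH replicate 2. For 14 of these 15, IgG replicate 1 was the highest of the 4 libraries, and the exception was ZNF704. At the other end, the 32 members at 0 had a median of 21.5 CPM in IgG replicate 2, and of 46.6 and 37.8 CPM in the anti-PHGDH pair. A count of 0 in IgG replicate 1 allows up to 3 reads, or 0.774 CPM. ZNF593 was at 122 CPM in IgG replicate 2, at least 158-fold higher than that limit.

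The members with the most reads in IgG replicate 1 were a mixed set by function. ZNF121 was at 820.5 CPM there and at 29.1 CPM in IgG replicate 2, with 22.6 and 36.2 CPM in the anti-PHGDH pair. ZNF641 was at 770.2 CPM against 6.33 CPM in IgG replicate 2, and at 29.4 and 11.5 CPM with anti-PHGDH. ZNF330, a nucleolar protein, was at 741 CPM against 41.8 CPM, and at 24.7 and 51.8 CPM with anti-PHGDH. All 3 were within the range of the anti-PHGDH libraries, or below it, in the IgG library numbered 2, and far above it in the IgG library numbered 1. ZNF638, which takes part in the silencing of unintegrated retroviral DNA, was at 669 and 35.5 CPM in the IgG pair, against 59.7 and 21.4 CPM in the anti-PHGDH pair. ZNF644, a partner of the G9a and GLP histone methyltransferases, was at 330.3 and 24.7 CPM in the IgG pair, against 22.9 and 32.9 CPM in the anti-PHGDH pair. ZNF518A was at 417 and 15.2 CPM in the IgG pair, against 32.7 and 9.04 CPM in the anti-PHGDH pair. For these, the difference between the IgG replicates was larger than any difference between the antibodies in the libraries numbered 2.

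**Figure D2:**
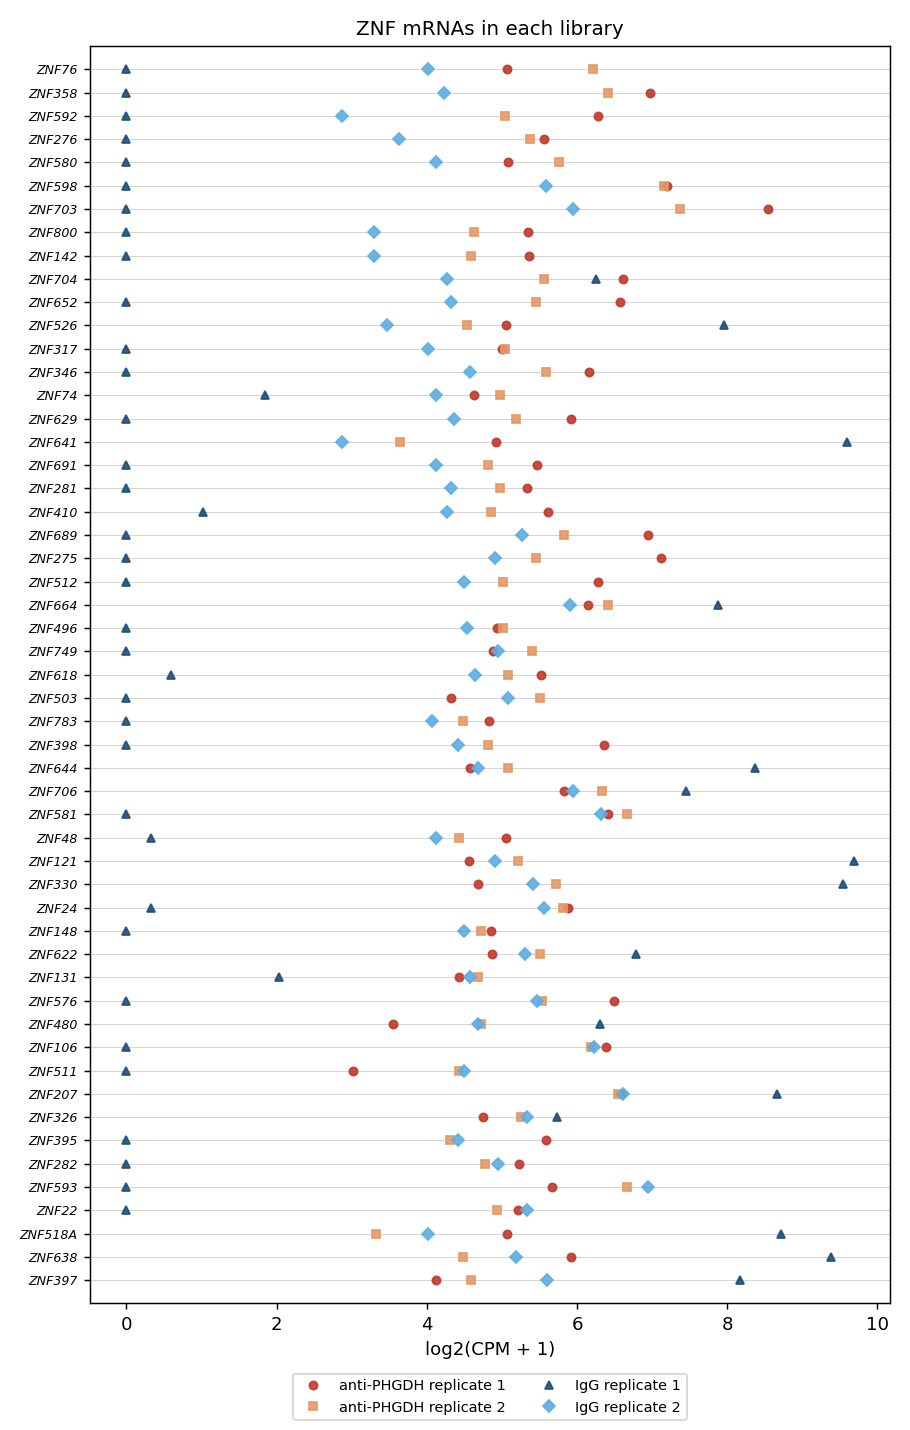
Level of each of the 53 ZNF mRNAs, as log2(CPM + 1) on the x axis, in anti-PHGDH replicates 1 (circles) and 2 (squares) and IgG replicates 1 (triangles) and 2 (diamonds). Genes are ordered by the ratio of anti-PHGDH replicate 2 to IgG replicate 2 on CPM + 1, from ZNF76 at the top to ZNF397 at the bottom. The triangles lie at 0 for 32 genes and to the right of the other 3 symbols for 14.

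All members together took 0.308% and 0.239% of reads in the anti-PHGDH pair, 0.542% in IgG replicate 1 and 0.166% in IgG replicate 2. The 5 most abundant members made up 63.1% of the summed CPM of the members in IgG replicate 1, and between 25.1 and 29.3% in the other libraries. The summed level was thus highest in the library with the fewest members detected, and it rested on few genes there. The median member had 135 and 40 reads in the anti-PHGDH pair, and 36 reads in IgG replicate 2. CPM is not scaled by transcript length, so values are compared between libraries and not between genes.

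In the libraries that detected every member, recovery with anti-PHGDH was higher than with IgG for most members, without passing a test across replicates. With number 2 of each antibody, the median ratio of CPM + 1 (anti-PHGDH over IgG) was 1.35 over members and 1.10 over the other genes. The member ratios ran from 0.495 (ZNF397) to 4.58 (ZNF76). Of the 53 members, 42 (79.2%) were higher with anti-PHGDH, against a background of 62% of the other genes. At least 2-fold higher were 14 members (26.4%), against 9.91% of the other genes, and at least 2-fold lower was 1 member (1.89%), against 0.402%. With anti-PHGDH replicate 1 over IgG replicate 2, this median was 1.89 over members and 0.988 over the other genes. The median absolute log2 difference of a member was 0.64 between the anti-PHGDH replicates, 4.32 between the IgG replicates, and 0.50 between anti-PHGDH replicate 2 and IgG replicate 2, so that the difference between antibodies in number 2 was of the order of that between the anti-PHGDH replicates. With counting error alone, the 95% interval of the CPM ratio in the libraries numbered 2 lay above 1 for 18 members and below 1 for ZNF638 and ZNF397 (exact binomial intervals of the 2 read counts). These intervals were computed for members only, so the counts have no background share and are no result about the members. Comparisons of 1 library with 1 other describe those libraries and not the antibodies.

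**Figure D3:**
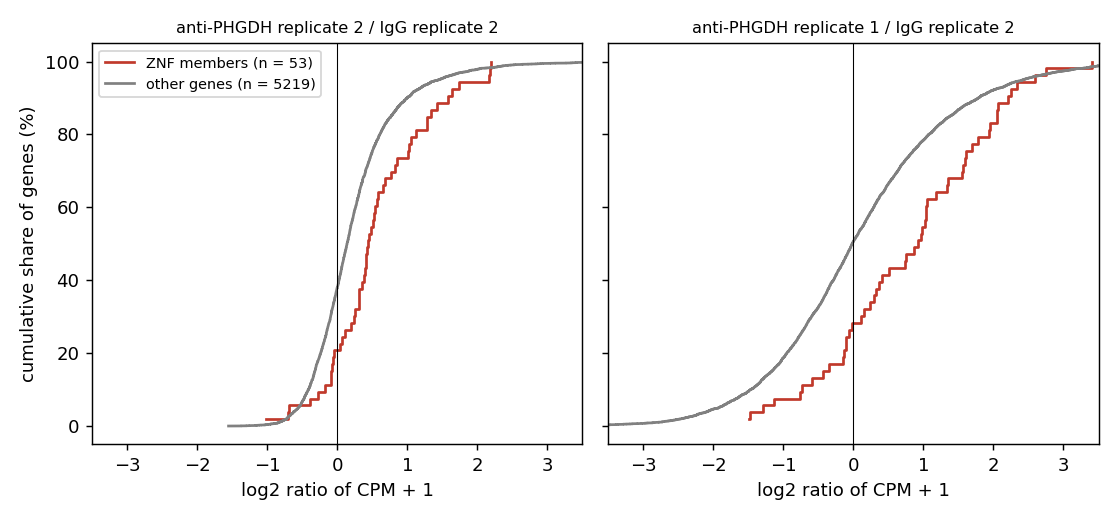
Cumulative share of genes (y axis, %) by the log2 ratio of CPM + 1 (x axis, drawn from -3.5 to 3.5) of anti-PHGDH replicate 2 (left) and anti-PHGDH replicate 1 (right) to IgG replicate 2, for 53 ZNF members (red) and 5219 other genes (grey). The red curve lies to the right of the grey one over most of the range, with median log2 ratios of 0.44 against 0.14 on the left and 0.92 against -0.018 on the right.

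How a member met the CPM rule bears on these shares. Of the 53 members, 16 (30.2%) reached 20 CPM in both anti-PHGDH libraries and in neither IgG library, which was so for 550 of the other genes (10.5%). A gene that passed in this way had to be lower in both IgG libraries, so its difference was fixed by the rule. The other 37 members reached 20 CPM with each antibody at least once, as did 4646 other genes. Of these 37, 26 (70.3%) were higher with anti-PHGDH in number 2, against 57.9% of the 4646, and 5 (13.5%) were at least 2-fold higher, against 4.93%. Their median ratio in number 2 was 1.23, against 1.06.

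**Figure D4:**
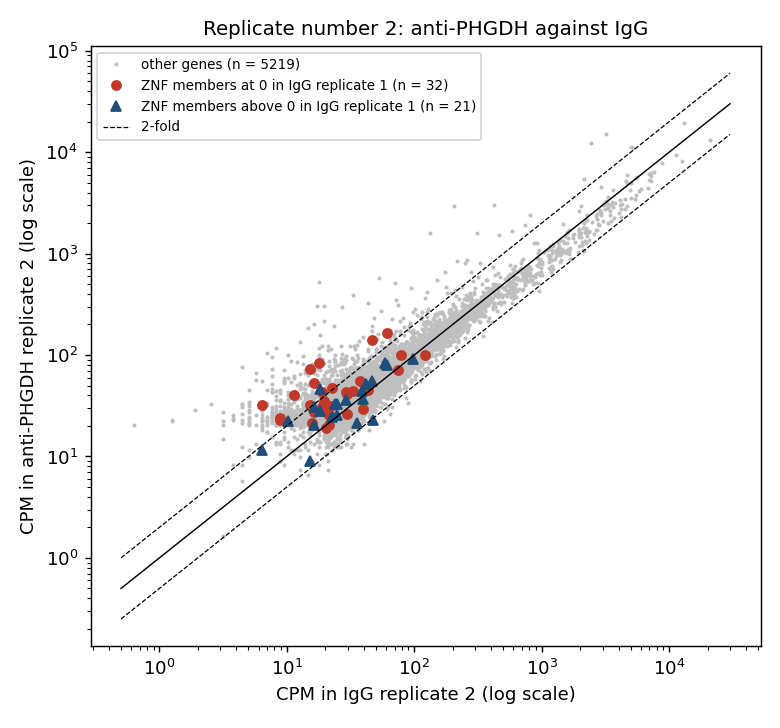
CPM in anti-PHGDH replicate 2 (y axis, log scale) against IgG replicate 2 (x axis, log scale) for 5219 other genes (grey), the 32 ZNF members at 0 in IgG replicate 1 (red circles) and the 21 above 0 there (blue triangles). The solid line marks equal values and dashed lines a 2-fold difference, beyond which 14 members lie on the anti-PHGDH side and 1 on the IgG side.

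Counting over all 4 libraries, 10 members (18.9%) were at least 2-fold higher on CPM + 1 in every pairing of an anti-PHGDH with an IgG library, against 9.3% of the 9524 genes tested and 7.99% of the other genes at 20 CPM. In the opposite direction it was ZNF397 alone, against 0.084% of the genes tested and 0.0383% of the other genes at 20 CPM. With library medians set equal, 3 members were higher and 1 was lower by this rule, against 1.14% and 1.65% of the genes tested. Only 4148 genes were above 0 in IgG replicate 1, so its median over the 9524 genes tested was at 0. Setting medians equal thus raised the genes at 0 there relative to the other libraries. With quantile normalization 5 members were higher and 1 was lower, against 3.07% and 1.05% of the genes tested. Leaving out IgG replicate 1 gave 12 members higher (22.6%) and 1 lower, against 10% and 0.388% of the genes tested and 8.87% and 0.153% of the other genes. Leaving out IgG replicate 2 gave 38 members higher (71.7%) and 13 lower (24.5%), against 75.7% and 12.7% of the genes tested. Leaving out anti-PHGDH replicate 2 gave 20 and 2, against 21.9% and 3.8%. All 10 were at 0 in IgG replicate 1. Among members at 0 there the share was 10 of 32 (31.3%), against 13.8% of the other genes at 0 there, and among members above 0 there it was 0 of 21, against 2.93%. Of the 10, 7 had passed the CPM rule through the anti-PHGDH libraries only. Among the 37 members that reached 20 CPM with each antibody, 3 were 2-fold higher in every pair (8.11%), against 149 of 4646 other genes (3.21%). Those 3 were ZNF703, ZNF598 and ZNF346. With a requirement of no overlap between groups instead of 2-fold, 29 members were higher, against 38.3% of the genes tested and 33.7% of the other genes, and 3 were lower, against 6.16% and 9.43%. The CPM rule fixed 16 of these 29, and of the other 37 members 13 (35.1%) were higher without overlap, against 26.0% of the 4646 other genes. Without IgG replicate 1, both anti-PHGDH libraries were above IgG replicate 2 for 33 members (62.3%), against 41.2% of the other genes. Both were below it for 6 members (11.3%), against 29.8%. The CPM rule fixed 16 of the 33 as well.

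ZNF703 and ZNF503 are paralogous co-repressors of the NET family, and ZNF703 is known for its amplification in luminal breast tumours. ZNF703 (4238 bp on chromosome 8, 37695782 to 37700019 in the RefSeq annotation of GRCh38.p14) gave 373 and 164 CPM in the anti-PHGDH pair, against 0 and 60.8 CPM in the IgG pair. The anti-PHGDH mean was 269 ± 148 CPM and the IgG mean 30.4 ± 43.0 CPM (SD, n = 2 each). Both anti-PHGDH libraries were above both IgG libraries, and the ratio of CPM within number 2 was 2.70 (95% counting interval 2.11 to 3.49). The limma estimate on the log2 scale was 4.98 with an SE of 2.03 (adjusted p = 0.677), or 2.01 without IgG replicate 1 and 7.96 without IgG replicate 2, and the spread of ZNF703 within groups was 3.03 on the log2 scale. ZNF503 showed no such separation. It was at 19.01 and 44.4 CPM in the anti-PHGDH pair, against 0 and 32.9 CPM in the IgG pair, so that IgG replicate 2 lay between the anti-PHGDH replicates.

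Some members below were named for their known role after their values were seen (ZNF503, ZNF346, ZNF593, ZNF106 and ZNF410), and ZNF704, ZNF580 and ZNF581 were likewise chosen after their values were seen. Among members known for work on ribosomes and RNA, the 4 libraries were ordered differently from gene to gene. ZNF598, the collided-ribosome ubiquitin ligase (chromosome 16, 1997654 to 2009821), was at 146 and 142 CPM in the anti-PHGDH pair, against 0 and 46.9 CPM in the IgG pair. Its anti-PHGDH replicates were close together (mean 144 ± 2.38 CPM, SD, n = 2) and both above the higher IgG value, with a ratio within number 2 of 3.04 (95% counting interval 2.30 to 4.04). The log2 fold change of ZNF598 was 4.39 (SE 2.20; limma adjusted p = 0.677), or 1.60 without IgG replicate 1 and 7.18 without IgG replicate 2. ZNF346, the binder of double-stranded RNA, was at 70.7 and 46.9 CPM in the anti-PHGDH pair, against 0 and 22.8 CPM in the IgG pair. The ribosome maturation factors were not separated in this way. ZNF622 was at 28.2 and 44.4 CPM in the anti-PHGDH pair, against 109 and 38.6 CPM in the IgG pair, with IgG replicate 1 the highest of the 4. ZNF593 was at 49.6 and 100.3 CPM in the anti-PHGDH pair, against 0 and 122 CPM in the IgG pair, so that the IgG libraries were both the lowest and the highest. ZNF106, which binds RNA, was at 82.3 and 71.5 CPM in the anti-PHGDH pair, against 0 and 74.1 CPM in the IgG pair.

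Of members with known roles in chromatin and transcription, ZNF592, which associates with the chromatin reader ZMYND8, had the largest CPM ratio within number 2. It was at 77.0 and 32.1 CPM in the anti-PHGDH pair, against 0 and 6.33 CPM in the IgG pair, and the ratio of 5.06 rests on 39 and 10 reads (95% counting interval 2.48 to 11.4). ZNF652, a DNA-binding repressor that works with CBFA2T3, was at 93.9 and 42.7 CPM in the anti-PHGDH pair, against 0 and 18.99 CPM in the IgG pair. ZNF76, a paralog of the snRNA gene activator ZNF143, was at 32.4 and 73.2 CPM in the anti-PHGDH pair, against 0 and 15.2 CPM in the IgG pair. In the other 9 of the 10, anti-PHGDH replicate 1 exceeded anti-PHGDH replicate 2, and in ZNF76 it did not. ZNF142, in which variants cause a neurodevelopmental disorder, was at 40.1 and 23.0 CPM in the anti-PHGDH pair, against 0 and 8.86 CPM in the IgG pair. ZNF800 was at 39.8 and 23.8 CPM in the anti-PHGDH pair, against 0 and 8.86 CPM in the IgG pair. ZNF358 was at 124 and 83.8 CPM in the anti-PHGDH pair, against 0 and 17.7 CPM in the IgG pair, the largest gap of the 10 between the lower anti-PHGDH and the higher IgG value (4.53-fold on CPM + 1). ZNF410, an activator of the CHD4 gene, was at 48.1 and 27.9 CPM in the anti-PHGDH pair, against 1.03 and 18.4 CPM in the IgG pair, without overlap but under 2-fold.

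ZNF276 illustrates a limit of counting by gene. It was at 46.3 and 40.3 CPM in the anti-PHGDH pair, against 0 and 11.4 CPM in the IgG pair. Its gene span on chromosome 16 (89720368 to 89740925) overlaps those of FANCA and VPS9D1 in the RefSeq table. VPS9D1 was at 593 and 303 CPM in the anti-PHGDH pair, against 4.90 and 17.1 CPM in the IgG pair, 16.8-fold apart between the lower anti-PHGDH and the higher IgG value on CPM + 1, and FANCA was at 25.3, 26.3, 0 and 21.5 CPM in the same order. The use of strand is not given in the sources used here, so reads of overlapping genes on opposite strands cannot be told apart, and the part of VPS9D1 in the ZNF276 values was not tested. Of the 53 members, 24 overlap another gene's span in that table, among them 4 of the 10 (ZNF276, ZNF142, ZNF652 and ZNF358). ZNF142 overlaps BCS1L, which was at 163 and 109 CPM in the anti-PHGDH pair, against 0 and 103 CPM in the IgG pair. ZNF652-AS1, which overlaps ZNF652, and LOC105372261, which overlaps ZNF358, did not exceed 0.633 CPM in any library. ZNF580 lies inside the span of ZNF581 on chromosome 19. ZNF580 was at 33.0 and 53.4 CPM in the anti-PHGDH pair, against 0 and 16.5 CPM in the IgG pair, and ZNF581 at 84.4, 100.3, 0 and 78.5 CPM in the same order.

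**Figure D5:**
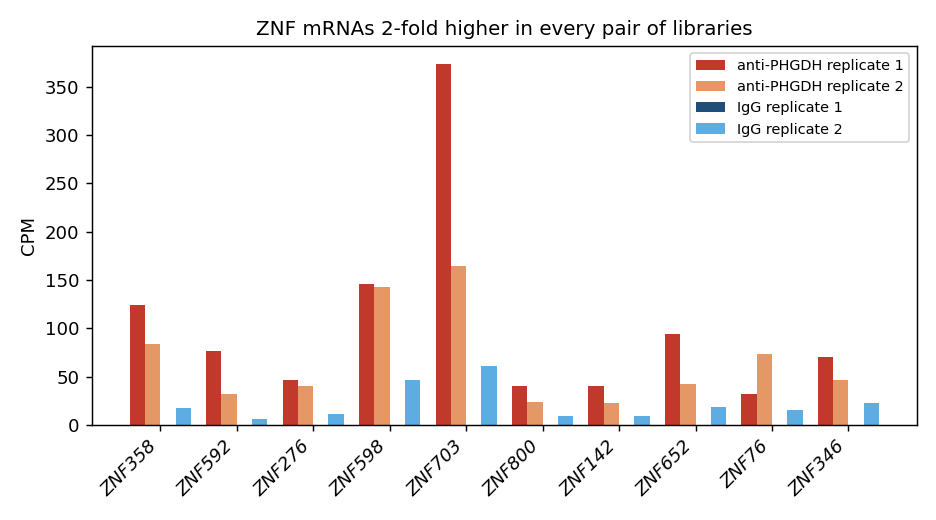
CPM (y axis, from 0) of the 10 ZNF mRNAs that were at least 2-fold higher on CPM + 1 in every pairing of an anti-PHGDH with an IgG library, ordered by the size of that gap from ZNF358 (4.53-fold) to ZNF346 (2.01-fold). Each bar is 1 library, and the IgG replicate 1 bars are at 0 for all 10.

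Members lower with anti-PHGDH in both libraries were ZNF397, ZNF207 and ZNF326. ZNF397 (chromosome 18, 35241034 to 35259227), a SCAN-domain zinc finger protein, was at 16.3 and 23.0 CPM in the anti-PHGDH pair, against 288 and 47.5 CPM in the IgG pair. Every anti-PHGDH value was under every IgG value, the ratio of CPM within number 2 was 0.485 (95% counting interval 0.302 to 0.757), and limma estimated a log2 difference of -2.54 with an SE of 1.98 (adjusted p = 0.677), or -1.25 without IgG replicate 1 and -3.82 without IgG replicate 2. ZNF207, the spindle factor, was at 95.4 and 92.1 CPM in the anti-PHGDH pair, against 403 and 96.9 CPM in the IgG pair. Within number 2 its ratio was 0.950 (95% counting interval 0.738 to 1.22), so that the separation came from IgG replicate 1. ZNF326, a member of the DBIRD complex that links transcription elongation and splicing, was at 25.8 and 37.0 CPM in the anti-PHGDH pair, against 52.4 and 39.3 CPM in the IgG pair. It had the narrowest range of all members, 1.99-fold between the highest and the lowest library on CPM + 1. The next narrowest were ZNF706 at 3.08-fold (55.6, 79.7, 173 and 60.8 CPM), ZNF622 at 3.77-fold and ZNF664 at 3.94-fold (69.5, 83.8, 235 and 58.9 CPM), with the anti-PHGDH values first. In each of these 4, IgG replicate 1 was the highest library. ZNF480 was at 10.7 and 25.5 CPM in the anti-PHGDH pair, against 78.2 and 24.7 CPM in the IgG pair, and ZNF22 at 36.2 and 29.6 CPM in the anti-PHGDH pair, against 0 and 39.3 CPM in the IgG pair.

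No member passed the test across all genes. In limma on log2(CPM + 1), 0 of 53 members were called higher and 0 lower at an adjusted p under 0.05, against 0.0105% (1 gene, PHGDH) and 0% of the 9524 genes tested. The adjusted p of members ran from 0.677 to 0.864. At an unadjusted p under 0.05, ZNF703 and ZNF598 were higher and 0 members were lower, against 2.74% and 0% of the genes tested. edgeR on the recovered reads called 0 members, and at an unadjusted p under 0.05 it had 2 lower and 0 higher, and DESeq2 likewise called 0, with 2 lower and 0 higher. The shares of all genes at that unadjusted level in edgeR and DESeq2 are not given here, so these unadjusted counts have no background. The median log2 fold change was 2.68 over members, 2.12 over the other genes at 20 CPM and 1.92 over all genes tested. The difference between members and the other genes, 0.56, was 0.94 without anti-PHGDH replicate 2. Of the members, 16 (30.2%) had met the CPM rule through the anti-PHGDH libraries only, against 10.5% of the other genes. Their fold changes were above 0 by that rule, also with a library left out. The medians over members therefore rest in part on the rule, and they are not given without these 16. The median was 3.33 over members at 0 in IgG replicate 1 and -0.86 over members above 0 there, against 2.90 and -0.068 over the other genes. IgG replicate 1 enters the fold change, so this split was in part fixed by the grouping. Without IgG replicate 1 the medians were 0.58 over members and 0.05 over the other genes, and 1 member was called higher, ZNF592 (log2 fold change 2.79, limma adjusted p = 0.0277), and 0 lower, against 1.04% and 0.0315% of the genes tested. The lone IgG library is there assumed to vary like the anti-PHGDH libraries. Without IgG replicate 2, under the same assumption for IgG replicate 1, 38 members (71.7%) were called higher and 10 (18.9%) lower, against 74.9% and 10.8% of the genes tested and 64.6% and 14.2% of the other genes at 20 CPM. With 2 libraries per group, an exact permutation test cannot give a p under 0.333, so none was run.

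The rule left out most ZNF genes of chromosome 19. Of the 510 ZNF symbols with a chromosome in the RefSeq table, 247 (48.4%) lie on chromosome 19, and 9 of these (3.64%) met the CPM rule, against 16.7% of the 263 elsewhere. The median CPM of the chromosome 19 ZNF genes in anti-PHGDH replicate 2 was 0.822, which is 1 read, and that of the others was 4.93. In IgG replicate 2 the medians were 1.27 and 4.43 CPM. The 9 members on chromosome 19 had a median ratio of 1.37 within number 2, and the 44 members elsewhere 1.35. In IgG replicate 1, 3 of the 9 and 18 of the 44 were above 0. By gene span, the 26 members with spans under the median of 23017 bp had a median ratio of 1.41 and the other 27 of 1.34. The members nearest the threshold were ZNF395, ZNF48 and ZNF511, whose second-highest values were 20.3, 20.6 and 20.6 CPM. Just outside lay ZNF263 at 31.2 and 19.7 CPM in the anti-PHGDH pair, against 0 and 8.86 CPM in the IgG pair, ZNF7 at 19.3 and 15.6 against 76.1 and 12.03 CPM, and ZNF747 at 19.9 and 18.1 against 0 and 8.23 CPM.

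The partners of KRAB zinc finger proteins were examined as a list of 19 genes, of which 18 were tested. Of these, 0 were called in either direction (limma adjusted p from 0.677 to 0.836). At an unadjusted limma p under 0.05, 1 was higher and 0 were lower, against 2.74% and 0% of the genes tested. In every pair, 1 (5.56%) was 2-fold higher and 0 were 2-fold lower, against 9.3% and 0.084% of the genes tested. The median ratio within number 2 was 0.992, beside 1.28 for the 189 ZNF genes and 1.13 for all genes at the same filter, and the difference was not tested. In IgG replicate 1, 10 of the 18 were above 0, and the share of all genes tested is not given here. At 20 CPM it was 9 of 14, against 53.5% of the other genes at 20 CPM. ATF7IP, the gene of this list that was 2-fold higher in every pair, was at 13.7 and 19.7 CPM in the anti-PHGDH pair. In the IgG pair it was at 0 and 4.43 CPM. TRIM28, the co-repressor that KRAB domains bind, was at 579 and 370 CPM in the anti-PHGDH pair, against 2.32 and 279 CPM in the IgG pair (limma adjusted p = 0.677). Both anti-PHGDH libraries lay above IgG replicate 2, by 1.32-fold at the least. SETDB1, the methyltransferase, was at 24.1 and 31.2 CPM in the anti-PHGDH pair, against 0 and 27.2 CPM in the IgG pair. HP1-alpha (CBX5) was at 168 and 158 CPM in the anti-PHGDH pair, against 660 and 158 CPM in the IgG pair, and the deacetylase HDAC2 at 98.0 and 151 against 607 and 109 CPM. HDAC1, in contrast, was at 138 and 177 CPM in the anti-PHGDH pair, against 0 and 139 CPM in the IgG pair. CHD4, whose gene ZNF410 activates, was at 105 and 203 CPM in the anti-PHGDH pair, against 0.774 and 206 CPM in the IgG pair, and MORC2 at 5.94 and 9.87 against 76.9 and 6.33 CPM.

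C2H2 genes that carry other names (ZSCAN, ZKSCAN, ZBTB, ZFP, KLF and SP genes) gave 50 tested genes of 113 in the tables. Of these 0 were called, 8 (16.0%) were 2-fold higher in every pair and 0 were 2-fold lower, against 9.3% and 0.084% of the genes tested. At 20 CPM it was 2 of 10 higher, against 7.99% of the other genes at 20 CPM. The median ratio within number 2 was 1.26. KLF12 was at 42.2 and 22.2 CPM in the anti-PHGDH pair, against 0.774 and 3.17 CPM in the IgG pair, and SP1, a general activator of GC-box promoters, at 60.6 and 9.87 against 0 and 4.43 CPM. ZFP41 was at 27.0 and 17.3 against 0 and 3.80 CPM. In the other direction, KLF15 was at 1.78 and 6.58 against 122 and 3.80 CPM, KLF9 at 23.2 and 31.2 against 348 and 20.3 CPM, and KLF6 at 30.9 and 74.8 against 162 and 51.3 CPM, each highest in IgG replicate 1. Few ZNF antisense and pseudogene transcripts reached the level tested, 4 of 45 and 4 of 26, and 0 of them were called. The pseudogene ZNF271P was at 93.0 and 179 CPM in the anti-PHGDH pair, against 195 and 210.2 CPM in the IgG pair.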

How the data were processed

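RNA recovered from HEK293T lysates was sequenced in 4 libraries, 2 per antibody. The authors deposited CPM per gene symbol, with 3 decimals. Per the submitters' processing notes, STAR 2.5.4b, featureCounts and the hg38 build were used. Annotation, strand setting and handling of multi-mapped and duplicate reads are not given in the sources used here, so reads shared by similar ZNF genes are uncertain. The CPM steps gave whole reads for at least 99.98% of values above 0, and for all members' values.

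Genes at 5 CPM or more in at least 2 libraries (9524) were fitted on log2(CPM + 1) with limma 3.58.1 in R 4.3.3 (trend, two-sided, Benjamini-Hochberg over all genes). Fold changes on this scale understate those of low genes. The count tests edgeR 4.0.16 and DESeq2 1.42.0 were run on the recovered reads. Other settings tried were pseudocounts, filters, scaling, the replicate block, member thresholds and each library left out. On simulated data, the limma step was checked for recovery of known changes.

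Members and lists were chosen with earlier results of these data known. Members named were those past the test, the 8 most abundant, up to 8 at least 2-fold higher in every pair, those lower, the 8 highest in IgG replicate 1, the extreme and most even ratios and those nearest the threshold. In each pathway list, the 3 largest and the 3 smallest fold changes were picked for naming. SETDB1 was added to these, as was ATF7IP after its values were seen. Of the picks among antisense and pseudogene transcripts, only ZNF271P is described. Gene positions and overlaps come from RefSeq on GRCh38.p14, which held all 53 members. One marker gene is not reported here.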

Additional observations from a re-analysis of the deposited data

How the results depend on the processing

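No adjusted call of a member was made except where an IgG library was left out. With each library left out in turn, limma called 0 to 38 members higher and 0 to 10 lower (38 and 10 without IgG replicate 2, against 74.9% and 10.8% of all genes tested, and 1 and 0 without IgG replicate 1, against 1.04% and 0.0315%). The count of 10 members 2-fold higher in every pair was 3 with centring on library medians, 5 with quantile normalization, 2 at 4-fold, 17 of 109 members at a 10 CPM threshold, 3 of 14 at 50 CPM, and 12 to 38 with a library left out. As above, the median of IgG replicate 1 used in the centring was at 0. With a library left out, 10% to 75.7% of the genes tested were higher by this rule. At 4-fold and at thresholds of 10 and 50 CPM, the shares of the other genes are not given here. The 1 member lower was 0 with a pseudocount of 5, at 4-fold and at 50 CPM, and 1 to 13 with a library left out. Of the genes tested, 0.378% to 12.7% were lower by this rule with a library left out. The median log2 fold change of members minus other genes, 0.56, was 1.00 with a pseudocount of 0.1, 0.35 with a pseudocount of 5, 0.27 with quantile normalization, 0.87 in edgeR with the replicate block, 0.19 at 10 CPM, 1.54 at 50 CPM and 0.33 to 0.94 with a library left out. As above, this difference rests in part on the CPM rule, which more members than other genes by share met through anti-PHGDH only. The share of other genes in IgG replicate 1, 53.5%, was 42.5% at 5 CPM or more and 36.2% at 20 CPM or more, and 44.5% and 67.7% with thresholds of 10 and 50 CPM. The share of members there, 39.6%, was 28.3% at 5 CPM or more and 28.3% at 20 CPM or more. With thresholds of 10 and 50 CPM it was 28.4% and 50%. The cause of these moves was not tested.

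Of 26 named members under 18 alternatives (468 values), 12 log2 fold changes turned direction. With centring these were ZNF22 (-0.086) and ZNF511 (-1.02), and with quantile normalization ZNF48 (-0.11) and ZNF511 (-0.45). Centring, with a median at 0 in IgG replicate 1, lowered the log2 fold change of every gene by the same amount. The other 8 came without IgG replicate 1, and with each library left out the values ran from -5.31 to 1.41 for ZNF641, -4.18 to 0.016 for ZNF638, -4.51 to 0.18 for ZNF518A, -1.61 to 0.37 for ZNF664, -3.54 to 0.15 for ZNF644, -1.37 to 0.13 for ZNF706, -0.25 to 5.08 for ZNF22 and -0.77 to 3.73 for ZNF511. The cause was not tested. With the replicate number as a block, limma called 0 members higher and 0 lower, as without it. The deviations of same-numbered libraries from their group means had a correlation of 0.0058 over 9524 genes. With 2 libraries per group, these deviations only reflect the gap between replicates. The median absolute log2 gap of a member was 4.32 with IgG and 0.64 with anti-PHGDH. The correlation therefore cannot show whether the numbers mark pairs. The labels do not say so, and the numbers were not taken as pairs. The alternative that needed protein sequences, members with 5 or more C2H2 finger motifs, was not run. The median member had 40 reads in anti-PHGDH replicate 2, the shallowest library, and 36 in IgG replicate 2.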

Other observations

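Some ZNF genes below the CPM rule were high in IgG replicate 1 alone; they were chosen after their values were seen. ZNF23 was at 1258 CPM there and at no more than 5.75 CPM in the other 3 libraries. ZNF181 was at 299.6 CPM there and at no more than 1.49 CPM elsewhere, ZNF772 at 273 CPM against 2.38 CPM, ZNF391 at 255 CPM against 9.87 CPM, ZNF75A at 168 CPM against 5.94 CPM and ZNF81 at 141 CPM against 9.87 CPM. ZNF23 thus was at a higher CPM in IgG replicate 1 than any of the 53 members, the highest of which was ZNF121 at 820.5 CPM.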
